A study of Homo sapiens with 6 samples.

Results

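The 56 genes described here encode the spindle, kinetochore and checkpoint machinery of mitosis, together with the cyclins and kinases that start it. They were chosen by symbol, with earlier results of these data known. The deposited table lists 63241 genes and holds all 56, each of which averaged 1 TPM or more and so belongs to the 12999 genes tested. TPM is a gene's share of all transcripts in a library after division by transcript length, scaled to one fixed total in every library. The table holds 6 RNA-seq libraries of MDA-MB-231, an established human line of triple-negative breast cancer. Controls, 3 libraries, were not treated. The other 3 libraries are from cells exposed for 24 h to ArA at 40 µM, and the study's title names arachidonic acid, a precursor of prostaglandins held in phospholipids. The labels name no vehicle for the controls and do not say whether replicates were separate cultures, so the spread behind each p-value may be only technical. The comparison asks how the transcripts of cell division stand after the fatty acid.

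Mitosis begins when cyclin A and cyclin B activate the kinase CDK1, helped by CDC25 phosphatases and the kinases PLK1 and AURKA. Kinesins and microtubule-binding proteins build a bipolar spindle, and kinetochores, assembled on centromeres marked by CENPA, hold chromosomes to it. The spindle checkpoint keeps the ubiquitin ligase APC/C silent until every kinetochore is attached. CDC20 then activates the ligase, securin and cyclin B are destroyed, and separase opens the cohesin rings. Most of these genes are transcribed mainly in late S, G2 and M phase. In bulk RNA, fewer cells in those phases and less RNA per cell cannot be told apart.

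The late transcription of such genes is known to run through a promoter element called the CHR, with the letters TTTGAA, bound by the DREAM and MMB complexes, often with CCAAT boxes bound by NF-Y. RefSeq promoter windows (GRCh38.p14, 250 bases before to 50 after a start) matched 48 of the 56 genes with 61 windows, and AURKA, BUB3, TTK, UBE2C, TPX2, KNL1, BIRC5 and FOXM1 had no match. On either strand, and with overlap of motifs allowed, TTTGAA was found in 39 of the 61 windows (63.9%), against 15.2% of all 35116 windows of the same length. The variant TTCGAA stood in 5 windows (8.20%, against 1.45%), and CCAAT in 43 windows (70.5%, against 34.6%). The other mitotic lists described below, DNA replication genes left out, had 146 windows. Of those, 25.3% held TTTGAA, 6.16% TTCGAA and 47.3% CCAAT, so the share with TTCGAA was close to that of the members. TTTGAA and CCAAT stood together in 30 windows (49.2%, against 5.90%). Within the stretch from 60 bases before to 20 after the start, TTTGAA was found in 27 windows (44.3%, against 3.74%). The 6 stretches below, each the 100 bases before a start, show how the letters lie in 2 genes of anaphase onset, 2 kinesins, MKI67 and KIF2C, of which the last has neither motif in its window. Capitals mark TTTGAA and CCAAT on either strand (TTCAAA and ATTGG on the reverse).
CDC20, chr1:43358881-43358980, forward strand: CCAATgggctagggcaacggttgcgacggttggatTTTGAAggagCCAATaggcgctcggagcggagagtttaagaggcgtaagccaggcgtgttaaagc
ESPL1, chr12:53268199-53268298, forward strand: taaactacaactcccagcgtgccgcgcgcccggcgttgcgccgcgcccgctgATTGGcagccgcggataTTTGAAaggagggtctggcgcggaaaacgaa
KIF4A, chrX:70290004-70290103, forward strand: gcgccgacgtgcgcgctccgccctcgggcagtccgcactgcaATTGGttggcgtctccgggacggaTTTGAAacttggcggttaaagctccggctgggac
KIF11, chr10:92593030-92593129, forward strand: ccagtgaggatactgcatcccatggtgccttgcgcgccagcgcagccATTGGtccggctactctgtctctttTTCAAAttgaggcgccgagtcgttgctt
MKI67, chr10:128126424-128126523, reverse strand: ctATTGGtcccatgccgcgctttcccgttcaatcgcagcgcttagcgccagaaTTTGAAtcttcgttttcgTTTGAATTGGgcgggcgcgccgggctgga
KIF2C, chr1:44739737-44739836, forward strand: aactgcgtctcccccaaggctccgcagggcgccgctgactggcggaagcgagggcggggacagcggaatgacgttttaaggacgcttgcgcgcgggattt
The first letter of TTTGAA lies 31 bases before the start in ESPL1, 34 in KIF4A and 28 in KIF11, with a CCAAT box at 48, 58 and 53 bases. In MKI67 it occurs at 47 and at 29 bases. These are matches of letters and say nothing of binding in these cells.

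Cell identity and library quality were checked first. VIM, a mesenchymal filament, lay between 1335 and 1515 TPM in the 6 libraries, while the oestrogen receptor gene ESR1 was at most 0.03 TPM, PGR was listed at 0 in all 6 and the epithelial cadherin CDH1 was at most 0.17 TPM. Of the 10 luminal markers 7 had a mean of at least 1 TPM, keratins 8, 18 and 19 among them, with summed levels of 822 to 1025 TPM in the controls and 897 to 1009 TPM after ArA. The 6 blood markers summed to 0.20 to 0.43 TPM in the controls and 0.31 to 0.41 TPM after ArA, with HBB and HBA1 at 0 in all. The 6 fibroblast or muscle markers summed to 7.18 to 7.63 and 6.62 to 8.21 TPM. Control replicate 2 and ArA replicate 1 stood apart from the other 4 libraries by GC content, the share of G and C in the transcript. Over all tested genes with a GC value, log2 levels rose by 0.18 and 0.14 for each 10 percentage points of GC in these 2 libraries, measured against the gene's mean, and fell by 0.03 to 0.13 in the other 4. Values for the 56 genes together, their classes and the other lists are therefore also given without this pair. Mitochondrially encoded genes held 31.6% to 32.9% of all TPM in the controls and 32.1%, 28.0% and 26.9% in ArA replicates 1, 2 and 3, so the share left for all other genes was larger in ArA replicates 2 and 3. A fit with TPM rescaled without these genes is given below, and their part in the differences between groups was not tested beyond it.

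None of the 56 genes passed the test between ArA and control libraries, but most lay slightly lower in ArA libraries. In the limma fit, 0 of 56 had an adjusted p below 0.05, where 0.0231% of all tested genes did, and 0 of 56 had an unadjusted p below 0.05, where 2.78% did and 0.508% did so on the lower side. The smallest unadjusted p was 0.138, for CDC25C, and the smallest adjusted p in limma was 0.999. The log2 fold change, ArA minus control on the log2(TPM + 1) scale, was below 0 for 52 of the 56, where it was below 0 for 31.1% of all tested genes. The median over the 56 was -0.09, and the median over all tested genes was 0.06. Less that median of all genes, the 56 genes had a median of -0.15, a ratio of 0.904, and 55 of 56 lay below it. The exception was SMC2, at 0.02 above it. The differences ranged from -0.48 (SMC4) to 0.07 (SMC2) before subtraction, with a median standard error of 0.18. In the plot of fold changes with their intervals, the 95% interval of every member spans 0.

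**Figure D1:**
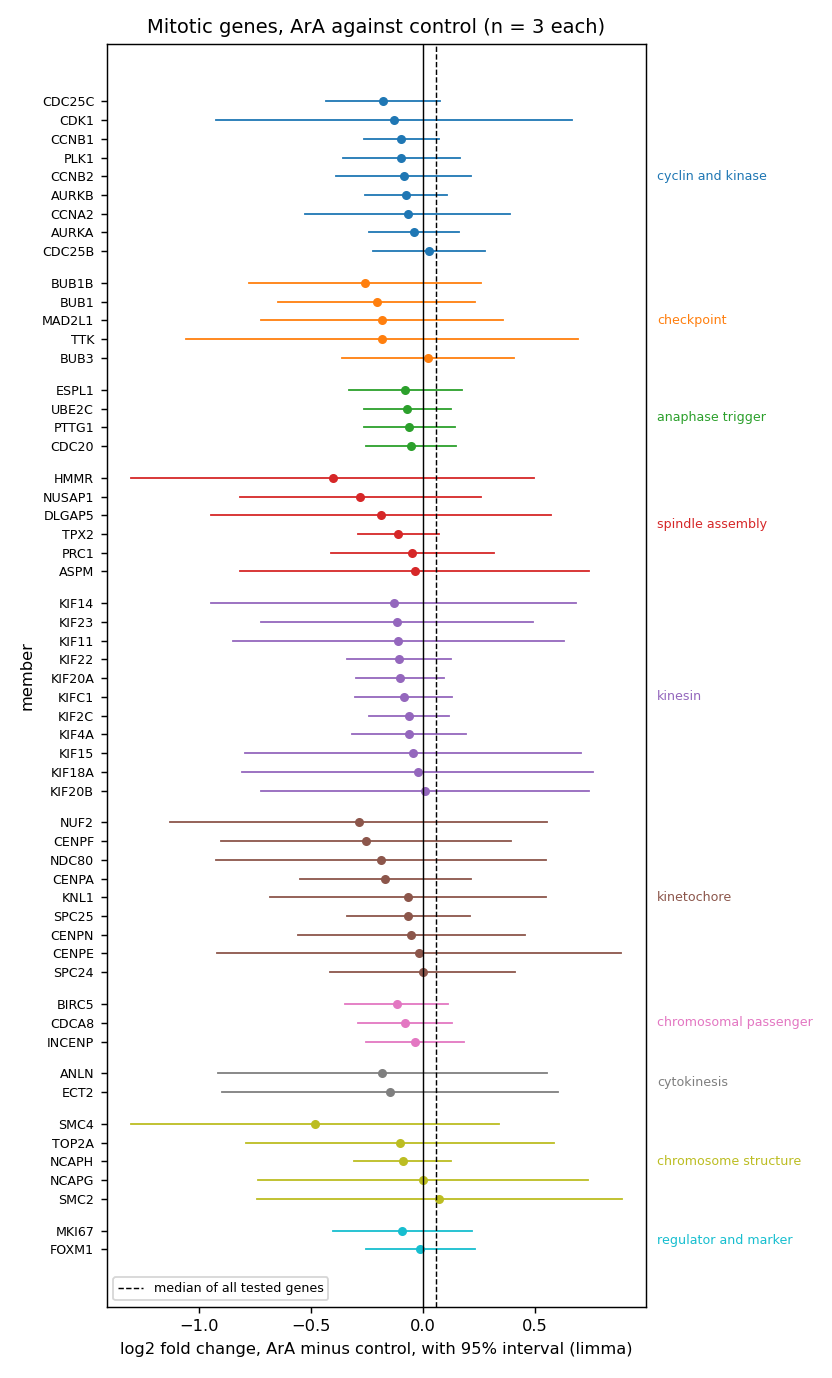
Log2 fold change of each of the 56 mitotic genes (ArA minus control, limma on log2(TPM + 1), n = 3 libraries each) with its 95% interval as a bar, grouped by role. The solid line marks 0 and the dashed line the median of all tested genes at 0.06. All intervals span 0, and 52 points lie left of it.

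The count of lower genes changed with single libraries and with the scale. With TPM rescaled without mitochondrially encoded genes, the median of all genes was -0.0021 and 55 of 56 members were below 0, where 50.7% of all genes in that fit were. Leaving out control replicate 1 gave 36 of 56 below 0, where 29.7% of all tested genes were, and leaving out control replicate 3 gave 38, where 22.2% were. Without ArA replicate 1, 26 of 56 log2 fold changes were below 0, where 19.5% of all tested genes were, and their median was 0.02, while the median of all genes was 0.12. Less the median of all genes the 56 then had a median of -0.10, with 42 below it. Without control replicate 2 the same median was -0.24 and 52 of 56 were below 0, where 48.2% of all tested genes were. In that limma fit 5 of 56 had an unadjusted p below 0.05 and were lower, where 1.86% of all tested genes were, and 0 had an adjusted p below 0.05, where 0.0539% did. Without both of these libraries it was -0.15 and 46 of 56 were below 0, where 34.1% of all tested genes were. With each library's dependence on GC taken out, it was again -0.15, with 54 of 56 below 0, where 46.6% of all tested genes were.

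Among cyclins and their regulators, CCNB1, the cyclin B1 gene, had 185.81, 186.64 and 198.59 TPM in control replicates 1, 2 and 3 and 176.95, 175.54 and 181.03 TPM in ArA replicates 1, 2 and 3. All 3 ArA values lay below all 3 control values. The ratio of means was 0.934 and the log2 fold change -0.10 (SE 0.07, 95% interval -0.26 to 0.07). CDC25C, a phosphatase that activates CDK1, had 17.18, 19.43 and 19.45 TPM in the controls and 15.04, 16.93 and 17.14 TPM after ArA, again without overlap, with a log2 fold change of -0.18 (SE 0.11, 95% interval -0.44 to 0.07). Its relative CDC25B had 31.38, 38.30 and 35.98 TPM in the controls and 35.56, 37.93 and 34.02 TPM after ArA, which overlap. In GENCODE v29 on hg38, CCNB1 (ENSG00000134057) is annotated at chr5:69167010-69178245 on the forward strand and CDC25C at chr5:138285265-138338355 on the reverse. CDC25C overlaps FAM53C, at a mean of 20.2 TPM, on the opposite strand. The strand of the reads is not known, so the level of CDC25C is uncertain.

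In all, 4 of the 56 genes had all 3 ArA values below all 3 control values, where 1.21% of tested genes did, and 0 had all 3 above, where 6.84% did. Beside CCNB1 and CDC25C these were TPX2 and KIF2C. TPX2, which targets AURKA to spindle microtubules, had 132.30, 125.68 and 135.80 TPM in the controls and 116.53, 122.63 and 125.44 TPM after ArA, a ratio of means of 0.926. KIF2C, a kinesin that takes microtubule ends apart, had 64.00, 67.48 and 66.78 TPM in the controls and 63.97, 62.28 and 63.30 TPM after ArA, a ratio of 0.956. For KIF2C the groups nearly touch, at 63.97 and 64.00 TPM. For TPX2 and KIF2C the log2 fold changes were -0.11 (SE 0.08) and -0.06 (SE 0.08).

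The class of 9 cyclin and kinase genes also counts the phosphatase genes CDC25B and CDC25C. Its median difference was -0.14 on the log2 scale, less the median of all genes. Before that subtraction 8 of 9 were below 0, where 31.1% of all tested genes were. Set against all genes within each library, the class median was 0.01, 0.13 and 0.07 above the gene means in control replicates 1, 2 and 3 and 0.04, 0.06 and 0.12 below them in ArA replicates 1, 2 and 3, so the groups did not overlap. The kinase gene PLK1, a driver of mitotic entry, had 103.52, 130.94 and 118.97 TPM in the controls and 117.91, 110.28 and 101.40 TPM after ArA. AURKA and AURKB, kinases of the centrosome and the centromere, had means of 115 and 82.6 TPM in the controls and 112 and 78.4 TPM after ArA. CDK1 itself differed far more between replicates than between groups. It had 68.17, 31.46 and 65.12 TPM in the controls and 32.76, 56.41 and 57.50 TPM after ArA, with a 95% interval of -0.92 to 0.67 for its log2 fold change.

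**Figure D2:**
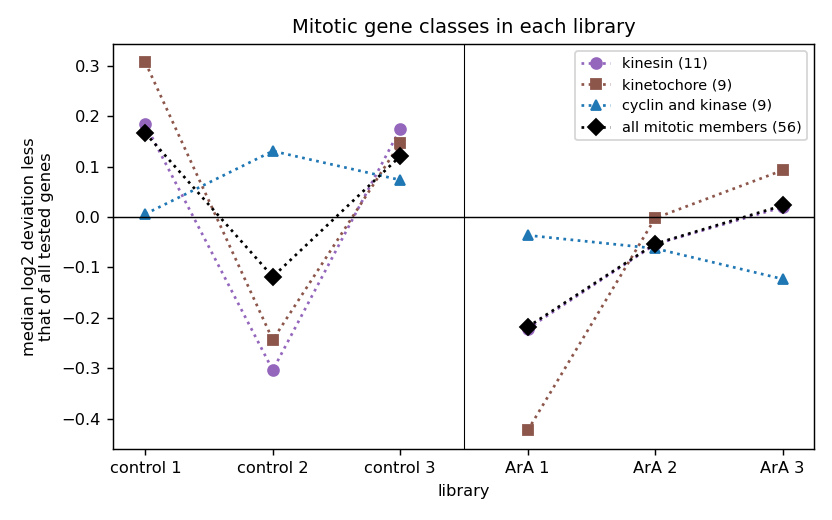
Median, over each class, of the log2(TPM + 1) deviation from the gene's mean of 6 libraries, less the same median over all tested genes, by library. Dotted lines only link the points of a class. Kinesins and kinetochore genes are lowest in control 2 and ArA 1, at -0.30 and -0.22 and at -0.24 and -0.42, while cyclin and kinase genes are above 0 in the 3 controls and below 0 in the 3 ArA libraries.

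The 11 kinesins had a median difference of -0.14 and the 9 kinetochore genes of -0.12, less the median of all genes. Before subtraction 10 of 11 and 9 of 9 were below 0, where 31.1% of all tested genes were. The 3 class medians thus lay closer to each other than the libraries of the kinesin or kinetochore class did. The pooled SD between replicate libraries of the class median was 0.22 for kinesins, 0.28 for kinetochore genes and 0.05 for cyclin and kinase genes. The kinesin median was -0.07 without control replicate 1 and -0.09 without control replicate 3. The kinetochore median was -0.32 without control replicate 2, -0.08 without ArA replicate 1, and -0.23 and -0.20 without ArA replicate 2 and 3. Without both libraries of the pair the medians were -0.12 for kinesins, -0.12 for kinetochore genes and -0.13 for cyclin and kinase genes. In the other classes they were then -0.25 for checkpoint, -0.09 for anaphase onset, -0.24 for spindle assembly, -0.10 for passenger, -0.34 for cytokinesis and -0.21 for chromosome structure genes, and -0.14 for FOXM1 and MKI67. The cyclin and kinase median stayed between -0.14 and -0.10 whichever single library was left out. The classes differ in GC content, with a median of 46.6% for cyclin and kinase genes, 42.3% for kinesins and 40.1% for kinetochore genes. Whether their steadiness between libraries goes with GC content was not tested.

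Within the kinesins, members fell into 2 kinds by how they varied between libraries. KIF20A, a cytokinesis motor, had 61.90, 66.85 and 65.39 TPM in the controls and 57.56, 63.31 and 59.93 TPM after ArA, and KIFC1, which clusters spindle poles, had 51.11, 60.05 and 58.18 TPM and 53.25, 52.75 and 52.96 TPM. KIF11, which pushes spindle poles apart, had 28.21, 13.50 and 25.73 TPM in the controls and 13.77, 22.90 and 24.54 TPM after ArA. KIF15, which can stand in for KIF11, had 11.24, 4.55 and 9.99 TPM and 6.17, 7.58 and 10.07 TPM. KIF11 and KIF15 were thus lowest in control replicate 2 and ArA replicate 1, while KIF20A and KIFC1 were not low in control replicate 2. KIF20B, at 34.2% the member with the lowest GC content, was the only kinesin with a positive log2 fold change, 0.01 (SE 0.31).

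The kinetochore showed the same division inside a single complex. NDC80 and NUF2, the microtubule-binding arm of the NDC80 complex, had 20.58, 10.11 and 21.32 TPM and 20.37, 8.78 and 16.54 TPM in control libraries. In ArA libraries they had 10.49, 14.91 and 18.83 TPM and 7.20, 14.44 and 14.94 TPM. Their partner SPC25 had 23.27, 21.03 and 24.02 TPM in the controls and 19.18, 22.28 and 23.84 TPM after ArA. SPC24 had 13.31, 17.20 and 14.53 TPM and 11.89, 15.13 and 18.43 TPM, so that it was highest among controls in the replicate where NDC80 and NUF2 were lowest. Because the strand of the reads is not known, the level of SPC24 is uncertain. CENPA, the centromere histone, had 23.56, 19.02 and 28.39 TPM in the controls and 18.45, 20.69 and 23.18 TPM after ArA, which overlap. Its p was the smallest of the class at 0.337 unadjusted in limma. CENPN, which reads the CENPA nucleosome and had the highest mean of the class, had 37.95, 23.98 and 34.29 TPM and 23.36, 33.68 and 35.49 TPM. CENPE, a kinetochore motor of the kinesin family counted here with the kinetochore, had 6.03, 2.81 and 5.92 TPM in the controls and 2.29, 6.86 and 5.90 TPM after ArA.

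**Figure D3:**
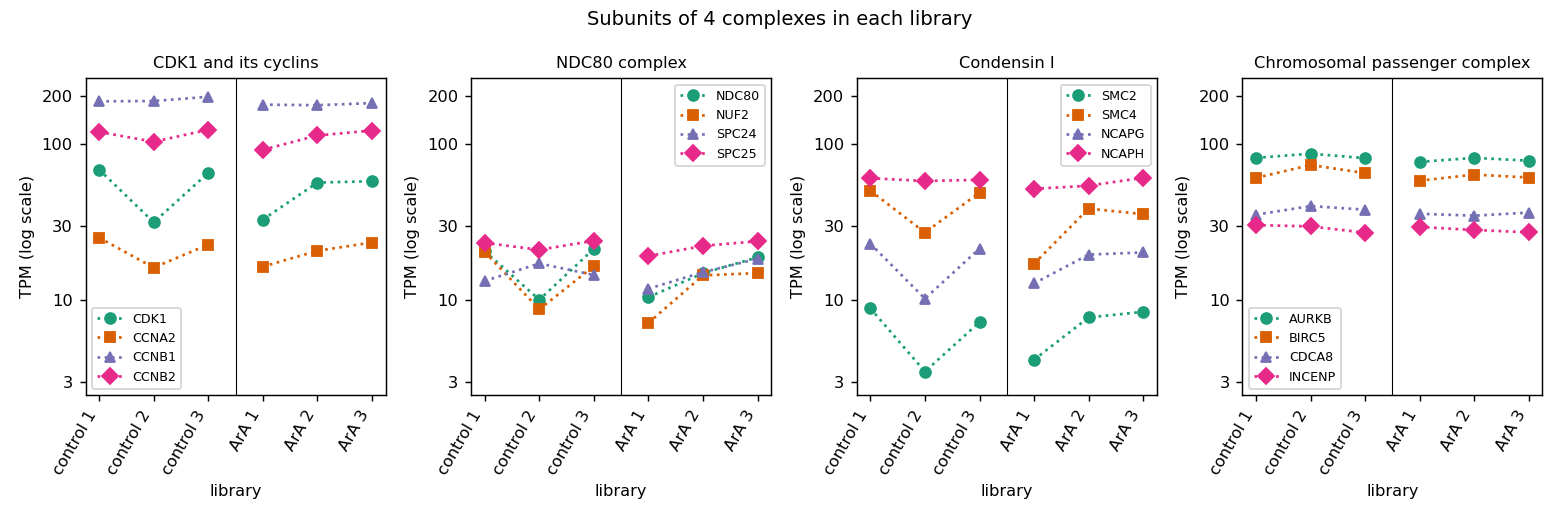
TPM on a log scale of the subunits of 4 complexes in each of the 6 libraries. Dotted lines only link the points of a gene. CDK1, NDC80, NUF2, SMC2, SMC4 and NCAPG are low in control 2 and ArA 1, while CCNB1, NCAPH and the 4 passenger genes stay within a narrow range.

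Condensin, which compacts chromosomes, divided likewise. SMC4, an ATPase subunit, had 50.02, 27.09 and 48.64 TPM in the controls and 17.15, 38.50 and 35.48 TPM after ArA. Its difference was the most negative of the 56 on the log2(TPM + 1) scale, while by the ratio of mean TPM HMMR was lower, at 0.670 against 0.725. Its partner SMC2 had 8.90, 3.52 and 7.27 TPM and 4.19, 7.79 and 8.46 TPM. The subunit NCAPH had 60.12, 57.71 and 58.70 TPM in the controls and 51.48, 53.84 and 60.57 TPM after ArA, which overlap. TOP2A, the topoisomerase that untangles sister DNA, had 118.31, 59.15 and 107.96 TPM and 62.43, 96.77 and 100.82 TPM.

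The genes of the chromosomal passenger complex, which corrects wrong attachments, differed little between libraries. BIRC5 (survivin) had 60.43, 72.96 and 64.83 TPM in the controls and 58.02, 63.38 and 60.75 TPM after ArA, a log2 fold change of -0.12 (SE 0.10). CDCA8 (borealin) had 37.7 ± 2.39 and 35.6 ± 0.811 TPM in the 2 groups (SD, n = 3 each), and INCENP, the scaffold, lay between 27.05 and 30.23 TPM in all 6 libraries. The same held for the genes of anaphase onset. PTTG1 (securin), the most abundant member, had 380.65, 454.76 and 409.36 TPM in the controls and 384.40, 396.54 and 409.09 TPM after ArA. The ubiquitin-conjugating enzyme UBE2C had 211.25, 242.22 and 242.38 TPM in the controls and 223.10, 215.20 and 223.50 TPM after ArA. The APC/C activator CDC20 had 114 ± 8.81 and 109 ± 1.92 TPM, and the separase gene ESPL1 had 16.6 ± 0.592 and 15.7 ± 1.33 TPM. All 4 of these log2 fold changes were below 0, where 31.1% of all tested genes were, and lay between -0.08 and -0.05.

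Of the 5 checkpoint genes, 4 had log2 fold changes below 0, where 31.1% of all tested genes did. The class median was -0.24 less the median of all genes. BUB1B, part of the complex that blocks CDC20, had 44.35, 28.79 and 44.22 TPM in the controls and 24.73, 33.83 and 38.72 TPM after ArA, and the kinase gene BUB1 had 57.29, 37.06 and 52.77 TPM and 35.43, 42.22 and 48.35 TPM. The groups overlap in both through control replicate 2. BUB3, which carries both proteins to kinetochores, had 100.36, 80.65 and 104.52 TPM and 76.76, 108.35 and 106.62 TPM. MAD2L1, which holds CDC20 inactive, had means of 28.5 and 25.1 TPM, and TTK, the kinase that starts the signal, of 9.22 and 8.02 TPM.

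Spindle assembly genes had log2 fold changes from -0.40 to -0.04, all 6 below 0, where 31.1% of all tested genes were. PRC1, which bundles the central spindle, had the highest mean of this class, with 143.41, 111.79 and 143.96 TPM in the controls and 105.14, 138.59 and 143.49 TPM after ArA. NUSAP1, a microtubule bundler, had 90.65, 57.11 and 89.07 TPM and 48.36, 71.94 and 73.45 TPM. HMMR, a spindle pole protein gene, had 6.66, 2.12 and 5.74 TPM and 1.87, 3.63 and 4.23 TPM. For cytokinesis, ANLN, which anchors the contractile ring, had 92.83, 44.70 and 84.27 TPM and 44.13, 71.64 and 75.34 TPM, and ECT2, which activates RhoA at the furrow, had 41.23, 19.03 and 39.87 TPM and 21.01, 30.86 and 35.27 TPM. FOXM1, a transcription factor of late cell cycle genes, had 65.50, 80.74 and 79.17 TPM in the controls and 74.99, 75.89 and 71.79 TPM after ArA. The proliferation marker MKI67 had 48.43, 37.48 and 51.01 TPM and 39.75, 42.87 and 44.57 TPM. Both overlap between groups, with log2 fold changes of -0.01 (SE 0.10) and -0.09 (SE 0.13).

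The division among members went with GC content, with exceptions. Control replicate 2 was set against the mean of control replicates 1 and 3, and ArA replicate 1 against the mean of ArA replicates 2 and 3, as ratios of TPM. Over the 31 members under 45% GC the median ratios were 0.523 and 0.6005, and over the 25 members with 45% or more they were 1.06 and 0.956. Both ratios were below 0.75 for 25 of the 31 and for 1 of the 25, CENPN. Over all tested genes 20.9% met that limit. Among those with a GC value, 2191 of 4758 under 45% GC met it and 433 of 7879 with 45% or more. Their median ratios were 0.654 and 0.729 under 45% GC and 1.04 and 0.950 above. The lowest ratios were 0.342 for HMMR in control replicate 2 and 0.359 for CENPE in ArA replicate 1. CCNB1 at 43.2% GC, with ratios of 0.971 and 0.993, departed from the trend, and so did SPC25 at 40.0% GC, with ratios of 0.889 and 0.832. Its partner NDC80, at a nearly equal 40.1% GC, had 0.483 and 0.622. In the same complex NUF2, at 38.8% GC, had 0.476 and 0.490, and SPC24, at 53.4% GC, had 1.24 and 0.709. The part of GC content in this division was not tested.

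**Figure D4:**
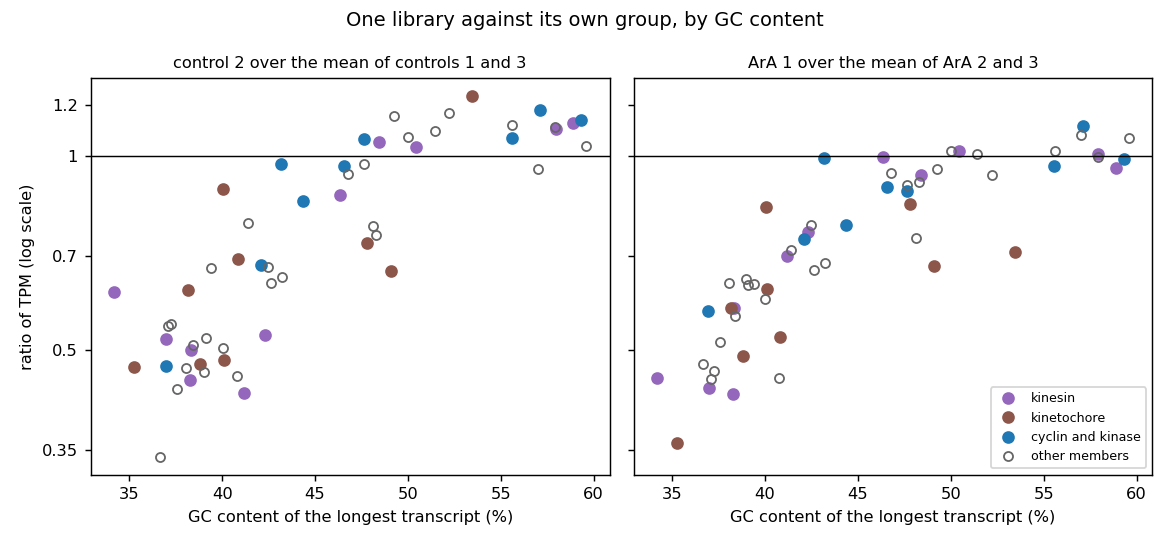
Ratio of TPM in control 2 to the mean of controls 1 and 3 (left) and in ArA 1 to the mean of ArA 2 and 3 (right), on a log scale, against GC content of the longest GENCODE v29 transcript, for the 56 mitotic genes. Points near 37% GC lie around 0.5 in both panels, and points above 50% GC lie near 1, with SPC24 at 0.709 in ArA 1.

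Across the 56 genes, Pearson's r between the log2 ratio and GC content was 0.85 for control replicate 2 and 0.85 for ArA replicate 1, against 0.49 and 0.40 across 12637 tested genes with a GC value. By ranks the gap was smaller, with Spearman's rho of 0.85 and 0.89 against 0.67 and 0.58. Genes are not independent replicates, and the points of a panel share their libraries, so these are descriptions. With transcript length r was -0.33 and -0.41 over the 56. Among the 56 genes ArA replicate 1 was the lowest library for 31 and the highest for 0, where it was the lowest for 20.8% and the highest for 12.4% of all tested genes. Control replicate 2 was the lowest for 11 of the 56 and for 36.2% of all tested genes, and control replicate 1 the highest for 24 and for 15.3%. The summed level of the 56 was 3004 to 3432 TPM in the controls and 2731 to 3235 TPM after ArA, so that the groups overlap. The spread is larger for members of low GC content, with a median standard error of 0.31 under 45% GC and 0.10 above, so a difference of a given size was harder to detect among the first.

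**Figure D5:**
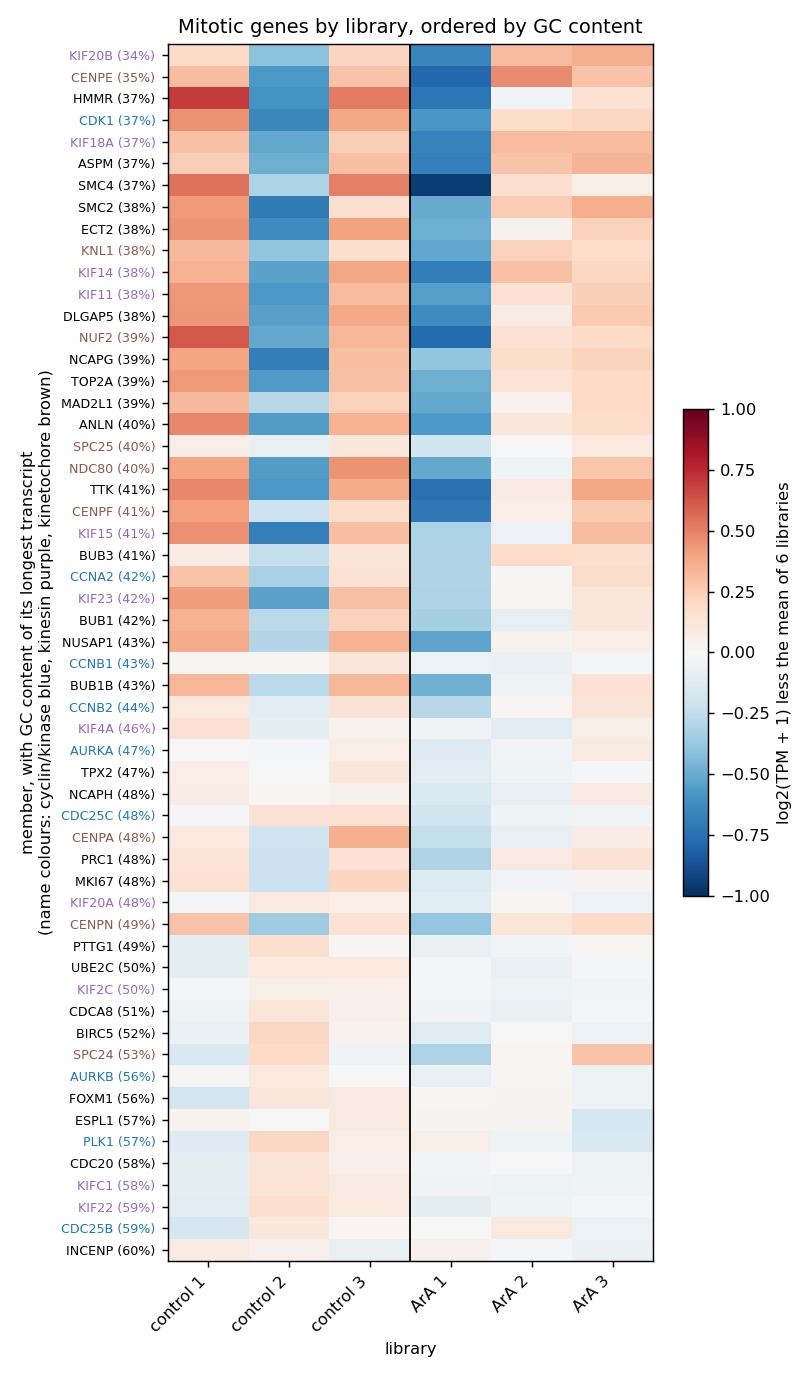
Deviation of log2(TPM + 1) from each gene's mean of 6 libraries (blue lower, red higher) for the 56 mitotic genes, ordered from low GC content (top) to high (bottom). The upper 31 rows, under 45% GC, are mostly blue in control 2 and ArA 1, while the lower 25 rows are mostly pale.

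Within the pair of libraries and within the other 4, single genes kept or lost their differences. SMC4 was lower in ArA in both, with a ratio of 0.633 between ArA replicate 1 and control replicate 2 and of 0.7498 between the means of the other ArA and control libraries. For HMMR these ratios were 0.882 and 0.634, for BUB1B 0.859 and 0.819, and for NUSAP1 0.847 and 0.809. For CDK1 they were 1.04 and 0.855, and for NCAPG 1.25 and 0.897, so the direction differed. For KIF20B they were 0.816 and 1.11. In the limma fit without the pair, which leaves 2 libraries against 2, 10 of the 56 genes had an unadjusted p below 0.05 and were lower, where 2.26% of all tested genes were, and 0 had an adjusted p below 0.05, where 0.0923% did. All 10 were under 45% GC. Of all tested genes, 163 of 4758 under 45% GC and 112 of 7879 with 45% or more were lower at that unadjusted p. Their medians less that of all genes were -0.06 and 0.03, so a trend with GC content remained without the pair. After GC correction 8 of 56 had an unadjusted p below 0.05 in limma and were lower, where 1.76% of all tested genes were, and 0 passed the adjusted threshold, where 0.0385% did. BUB1, BUB1B, NUSAP1 and SMC4 were among both the 10 and the 8. Their log2 fold changes after GC correction were -0.24 (SE 0.08), -0.30 (SE 0.10), -0.32 (SE 0.10) and -0.50 (SE 0.17).

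Other genes of the pathway were taken from lists that hold no member. Beside each list stand the 31.1% of all tested genes with a log2 fold change below 0 and the 0.0231% that passed. Of 30 other kinetochore and centromere genes, 0 passed the adjusted threshold in limma, 24 had log2 fold changes below 0, and the median less that of all genes was -0.15. CENPI, a subunit of the inner kinetochore, had the smallest p there, at 16.8 ± 3.10 TPM in the controls and 13.5 ± 3.39 TPM after ArA (SD, n = 3 each). Of 25 other spindle, centrosome and checkpoint genes 0 passed and 21 were below 0, with a median of -0.12 less that of all genes and CDCA3, which helps degrade WEE1, at 67.1 ± 6.42 and 59.8 ± 3.20 TPM. Of 16 anaphase-promoting complex genes 0 passed and 6 were below 0, with a median of -0.01 less that of all genes. The activator FZR1, which takes over from CDC20 in late mitosis, had 25.5 ± 0.793 and 29.4 ± 3.66 TPM. Of 13 other condensin and cohesin genes 0 passed and 8 were below 0, with a median of -0.07 less that of all genes and the cohesin gene SMC1A at 22.21, 19.00 and 18.71 TPM and 22.03, 23.78 and 23.83 TPM. Of 23 regulators of G2 and M phase 0 passed and 10 were below 0, with a median of -0.05 less that of all genes and LIN52, a subunit of the DREAM complex, at 2.35 ± 0.552 and 3.09 ± 0.554 TPM.

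A further list held kinesins and kinesin light chains that are mostly known for carrying cargo. Not all its members are transport motors, since KIF2A takes microtubule ends apart and also acts at spindle poles. Of 25 listed genes 17 were tested, 0 passed, and 3 were below 0, with a median of 0.02 above that of all genes, against -0.14 for the 11 mitotic kinesins. KIF2A had the smallest p of this list, at 8.92 ± 2.26 and 11.5 ± 2.92 TPM (SD, n = 3 each). The difference between the motor lists was not tested. Without the pair of libraries the medians less that of all genes were -0.19 for the other kinetochore list, -0.15 for the spindle list, -0.03 for the anaphase-promoting complex, -0.08 for condensin and cohesin, -0.04 for the regulators and 0.05 for the list with the light chains. Of 35 DNA replication genes, transcribed mainly at the entry to S phase, 0 passed and 26 were below 0, where 31.1% of all tested genes were. Their median was -0.10 less that of all genes, -0.11 after GC correction and -0.06 without the pair of libraries. For the 56 mitotic genes the values in those fits were -0.15 and -0.15. Of the 48 mitotic genes with a promoter window, 36 held TTTGAA in at least 1, with a median difference of -0.16 less that of all genes and a median GC content of 40.5%, and 12 did not, with -0.13 and 48.8%.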

How the data were processed

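Per the labels' protocols, libraries were made from total RNA with an Illumina TruSeq kit, and the titles place 3 in each group. The authors deposited values in TPM, 1 column per library, matched to samples by name. The submitters' processing notes name HISAT2, StringTie, RSEM and hg38. Annotation, strand and depth were not given in the sources used here. Of the table's lines, 50 that name no gene were left out.

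The 12999 genes averaging 1 TPM or more were fitted on log2(TPM + 1), pseudocount 1, with limma 3.58.1 in R 4.3.3 (lmFit, eBayes with trend, group as the only term, 2-sided, Benjamini-Hochberg over all tested genes, threshold 0.05). The fit was tested on simulated data. Members and lists were chosen with earlier results of these data known. Members with values in every library were those with separated groups and, per class, those with the highest mean and the smallest p; others were chosen after their values were seen. GC content came from the longest GENCODE v29 transcript (97.2% of tested genes had one), and the correction fitted each library's deviation on GC with a spline of 5 degrees of freedom. Of the 56 genes, 13 overlap another gene of at least 1 TPM on the opposite strand. These are CCNA2, CDC25C, KIF4A, KIF18A, KIF20A, KIF23, CENPN, NUF2, SPC24, ANLN, SMC4, NCAPG and FOXM1. On the same strand CENPA overlaps SLC35F6, at a mean of 37.6 TPM, and PRC1, KIF15 and CENPN also overlap a gene. PTTG1 and KIF4A have near-identical copies. The levels of all these genes are uncertain. Alternatives are named in the closing section.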

Additional observations from a re-analysis of the deposited data

How the results depend on the processing

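No member passed an adjusted p of 0.05 in limma under any of the 20 fits tried besides the reported one (3 other scalings, pseudocounts of 0.1 and 5, no filter, a mean of at least 5 TPM, eBayes without trend or robust, array weights, GC correction, the replicate block, and libraries left out). The smallest adjusted p of a member was 0.0784, for CENPA with array weights, where 214 of all genes passed, against 3 in the reported fit and 0 to 12 in the others. The number of members with log2 fold changes below 0 was 46 to 55 in the fits with all 6 libraries. With libraries left out the range was 26 to 56, the lowest without ArA replicate 1. The share of all tested genes below 0 also moved, from 19.5% without ArA replicate 1 to 50.7% with TPM rescaled without mitochondrially encoded genes. Below the median of all genes in the same fit lay 49 to 55 members with all 6 libraries and 42 to 56 with libraries left out. Less the median of all genes, the members' median was between -0.16 and -0.10 with all 6 libraries and between -0.24 and -0.10 with libraries left out. Counting CENPE as a kinesin, or TTK and BUB1 as kinases, moved class medians by less than their spread between libraries. Deviations from the group means correlated at r = -0.16, -0.28 and 0.11 between same-numbered libraries, and at 0.29 between control replicate 2 and ArA replicate 1. Such deviations cancel within a group, so these values cannot decide whether the numbers mark pairs. The labels name no pairs, and the numbers were not taken as pairs. With the replicate block 0 members and 0 of all genes passed, with 52 members below 0 and 55 below the median of all genes. With 53 members left at a mean of at least 5 TPM, 49 were below 0 and 52 below the median of all genes in that fit. TPM keeps no read totals, so depth and counting error are unknown.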
